A study of Homo sapiens with 25 samples.

Results

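Acetylation of lysine 27 on histone H3 (H3K27ac) was compared between NB4 cells given an LSD1 inhibitor together with a low dose of retinoic acid (RA) and NB4 cells given the solvent alone. The comparison used the 41191 H3K27ac peaks of the combination library and the 32789 of the DMSO library, 73980 of the 918840 peaks in the 23 lists of the series. A peak is a stretch of the genome in which the authors' peak caller found more immunoprecipitated reads than it took for background. A combination peak that shared no base with any DMSO peak was called gained, and a DMSO peak that shared no base with any combination peak was called lost. The remaining peaks of the combination list are called shared, and those of the DMSO list retained.

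NB4 is an established human cell line from acute promyelocytic leukemia. The cells of the combination group were treated for 24 h with MC_2580 plus RA at 0.01 µM. MC_2580 inhibits LSD1 (KDM1A), a demethylase of histones, and the sources used here do not state its dose. The control group received DMSO for the same time. H3K27ac lists of MC_2580 alone, of RA at 0.01 µM (low RA) and of RA at 1 µM (high RA), lists of H3K4me1, H3K4me2 and H3K4me3 in DMSO and in the combination, LSD1 in DMSO and in MC_2580, and GFI1 in untreated cells were used to describe the gained and lost regions.

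H3K27ac is laid down by the acetyltransferases p300 and CBP and removed by histone deacetylases, and it marks active promoters and enhancers. H3K4me3 is found mainly at promoters, while H3K4me1 and H3K4me2 without H3K4me3 mark enhancers, including primed ones that are not yet acetylated. LSD1 removes methyl groups from H3K4me1 and H3K4me2 and works within the CoREST complex, which also holds deacetylases. GFI1 is a DNA-binding repressor of blood cells that brings LSD1 and CoREST to its sites. RA binds the RAR receptors, which in this leukemia include the PML-RARA fusion protein, and makes promyelocytic cells mature.

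With 1 library per antibody and condition, differences have no replicate check, and no p-value is given. Every value describes these libraries. Intervals are 95% exact binomial intervals, or order-statistic intervals for a median, and cover counting error only, as peaks are not replicates. Read depth is unknown because the lists hold no read counts, and a deeper library gives a longer list. In a bulk culture, acetylation in fewer cells and less acetylation per cell cannot be told apart.

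In the combination, 15266 of 41191 H3K27ac peaks were gained, 37.1% of the list (95% interval 36.6 to 37.5). In DMSO, 6960 of 32789 peaks were lost, 21.2% of the list (20.8 to 21.7). The log2 ratio of gained to lost peaks was 1.13 (1.09 to 1.17), and gained peaks outnumbered lost peaks on 22 of 22 autosomes. The combination list is also the longer one. With both lists held to the length of the shorter, 9299 peaks were gained and 8711 lost, a log2 ratio of 0.094. Lists of equal length hold gains and losses nearly equal by construction, so this value says little about the direction, and the part of depth in the excess was not tested.

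Measured in bases, the combination list covered 149 Mb and the DMSO list 127 Mb, with 93.1 Mb in both. Of the 56.0 Mb covered in the combination alone, 65.5% lay in gained peaks and 19.3 Mb lay at the edges of shared peaks. Of the 34.2 Mb covered in DMSO alone, 48.5% lay in lost peaks and 17.6 Mb lay at the edges of retained peaks. The combination thus differed from DMSO more by separate added stretches than by wider ones, while DMSO-only bases were divided almost evenly between separate peaks and edges.

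Gained and lost peaks were mostly weak and narrow. The deposited score, which the authors' caller gives each peak as 10 times the negative log10 of its p-value, had a median of 88.3 in gained and 561 in shared peaks, and of 79.7 in lost and 377 in retained peaks. The score starts at 50 and piles up at 3100, so it was used only to rank or filter peaks within a list. Median width was 1855 bases in gained peaks (interval 1835 to 1875) against 3076 in shared peaks, and 1935.5 bases in lost peaks (1908 to 1969) against 3062 in retained peaks. With peaks split into quartiles by score, 69.7% of the lowest and 3.60% of the highest quartile of the combination list were gained. In the DMSO list, 48.6% of the lowest and 0.756% of the highest quartile were lost. By width, the gained share ran from 77.1% under 1 kb through 58.0% and 31.0% to 16.0% over 4 kb, and the lost share from 49.4% through 36.5% and 18.9% to 8.07%.

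**Figure D1:**
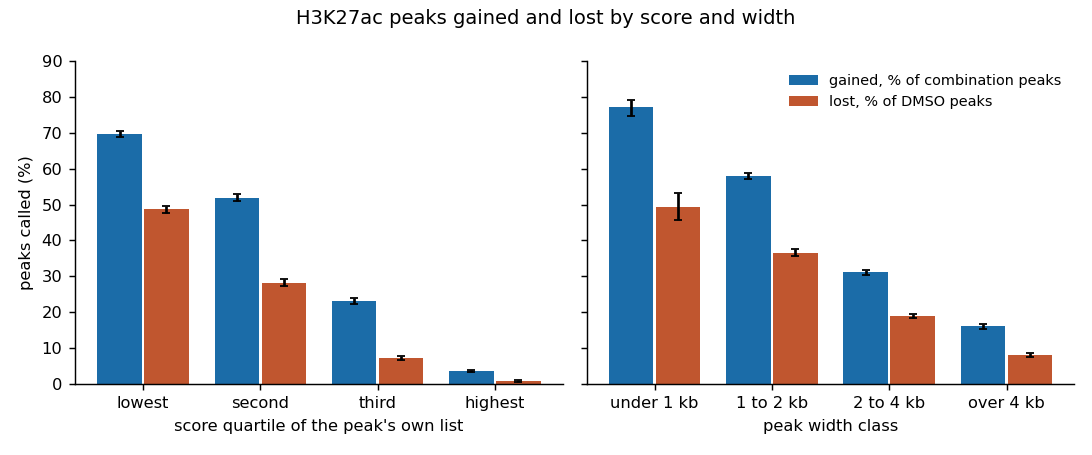
Percent of combination peaks gained (blue) and of DMSO peaks lost (orange) in each score quartile of the peak's own list (left) and each width class (right), 1 library per condition; black lines are 95% exact binomial intervals. Both shares go down from weak to strong and from narrow to wide peaks, and the gained share is the higher one in every class.

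Gained peaks also outnumbered lost peaks among high scores. One score minimum does not mean the same in both lists, since 4804 combination and 2863 DMSO peaks scored 3100 or more, and the part of this in the counts below was not tested. At a score of 500 or more, 934 of 14445 combination peaks (6.47%) had no DMSO peak, and 169 of 11574 DMSO peaks (1.46%) had no combination peak. At 1000 or more the counts were 396 gained and 56 lost, and at 3100 or more 79 gained and 4 lost. The log2 ratio of gained to lost was 1.43 at a score of 100 or more, 2.47 at 500 and 4.30 at 3100. Within the third and the highest score quartile, gained peaks were wider than shared peaks of the same quartile, with medians of 3379 against 3152 bases and 6150 against 4402 bases. Lost peaks of those quartiles were likewise wider than retained ones, with 3854 against 3314 bases and 6143 against 4652 bases.

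Where both conditions had a peak, its width was mostly alike. In 19206 places exactly 1 DMSO peak met 1 combination peak, and there the median ratio of combination to DMSO width was 1.01, with quartiles of 0.83 and 1.23. The combination peak was at least 2 times wider in 1200 of these places (6.25%) and at least 2 times narrower in 1043 (5.43%). Places that widened had a median DMSO score of 92.1, and 27.4% of them carried H3K4me3 in DMSO. Places that narrowed had a median DMSO score of 411 and H3K4me3 in 37.0%, while places within 2-fold had 450 and 62.8%. The DMSO peaks had median widths of 1779.5 bases where widened, 5134 where narrowed and 2898 within 2-fold. Sorting by a ratio to DMSO width sets these widths apart, and their part in the contrast was not tested. A further 2445 DMSO peaks were split over several combination peaks and 2274 combination peaks joined several DMSO peaks.

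Gained and lost peaks lay mainly on H3K4me1 without the promoter mark, or on chromatin with no H3K4 peak at all. Each peak was put into 1 class by the H3K4 methylation peaks of DMSO that it touched: H3K4me3, H3K4me1 with H3K4me2 but no H3K4me3, H3K4me1 only, H3K4me2 only, or none. H3K4me3 lay under 9.87% of gained peaks (9.40 to 10.3) and 55.6% of shared peaks. H3K4me1 alone lay under 32.3% of gained and 20.6% of shared peaks. No H3K4 peak lay under 50.0% of gained peaks (49.2 to 50.8), or 7630, and under 9.73% of shared peaks. Lost peaks were similar to gained ones, with H3K4me3 in 8.58%, H3K4me1 alone in 38.5% and no H3K4 peak in 42.7%, against 55.6%, 19.9% and 10.4% of retained peaks.

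**Figure D2:**
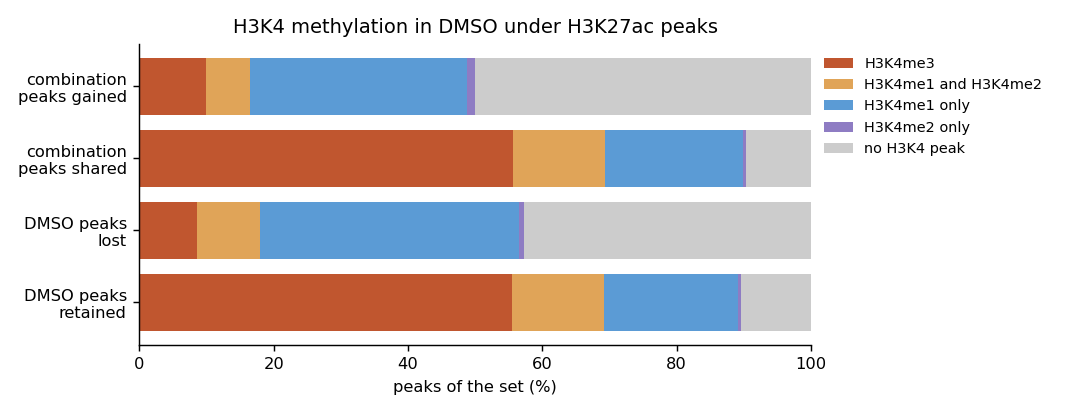
Percent of H3K27ac peaks in each H3K4 methylation class of DMSO, for retained and lost DMSO peaks and for shared and gained combination peaks. Gained and lost bars are mostly H3K4me1 only or no H3K4 peak, whereas more than 55% of the shared and retained bars is H3K4me3.

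Read the other way, promoter-type chromatin was the most stable class. Of the combination peaks on DMSO H3K4me3, 9.45% were gained, against 22.4% on H3K4me1 with H3K4me2, 48.1% on H3K4me1 alone and 75.2% off all H3K4 peaks. Of the DMSO peaks in these classes, 3.99%, 15.7%, 34.2% and 52.4% were lost. Peaks off all H3K4 peaks were also the weakest, with a median score of 75.7 when gained and 69.3 when lost. Among gained peaks with a score of 500 or more, 83.1% lay on H3K4me1 of DMSO, 17.6% on H3K4me3 and 15.5% on no H3K4 peak. Among lost peaks of that strength, 98.2% lay on H3K4me1, 37.3% on H3K4me3 and 1.78% on no H3K4 peak.

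The H3K4 marks of the combination were then read at the same peaks. For the H3K4me3 combination library the RA dose is unclear, since its title gives 1 µM but the treatment field, which was followed here, gives 0.01 µM. At gained peaks H3K4me1 was present in 48.3% in DMSO and 64.0% in the combination, H3K4me2 in 16.6% and 24.3%, and H3K4me3 in 9.87% and 16.9%. At lost peaks the shares stayed close together: H3K4me1 in 56.1% and 54.5%, H3K4me2 in 16.8% and 15.3%, and H3K4me3 in 8.58% and 11.3%. Shared peaks had H3K4me1 in 89.2% and 90.5% and H3K4me3 in 55.6% and 62.1%, so H3K4me3 was more frequent in the combination list at all these sets. The H3K4me3 list held 26963 peaks in the combination and 21688 in DMSO, and the part of list length in these shares was not tested.

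Gains of acetylation and of methylation calls met at part of the regions, with the longer H3K4me3 list of the combination as a limit. Of the 7630 gained peaks without an H3K4 peak in DMSO, 66.3% had none in the combination either, and 28.1% had H3K4me1 only. Of the 1019 gained peaks on H3K4me1 with H3K4me2, 34.0% had H3K4me3 in the combination, and of the 4931 on H3K4me1 alone, 12.2% did. In the lost set, 17.6% of 655 peaks on H3K4me1 with H3K4me2 and 5.37% of 2681 on H3K4me1 alone had H3K4me3 in the combination. Lost peaks on H3K4me1 alone kept that class in 76.2% and had no H3K4 peak in 12.2%. At most lost enhancer-type regions, a peak of H3K4me1 was thus still called where H3K27ac was not.

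LSD1 and GFI1 lay under fewer gained and lost peaks than shared and retained peaks, and more often under strong ones. The LSD1 list of DMSO held 12562 peaks and the GFI1 list 29601. LSD1 lay under 6.94% of gained peaks (6.55 to 7.36) and 32.3% of shared peaks, and under 5.78% of lost (5.24 to 6.35) and 32.1% of retained peaks. GFI1 lay under 12.5% of gained and 31.3% of shared peaks, and under 9.34% of lost and 30.7% of retained peaks. Both factors lay under 713 gained peaks (4.67%) and 188 lost peaks (2.70%). At a score of 500 or more, LSD1 lay under 24.3% of gained and 30.8% of lost peaks and GFI1 under 34.4% and 26.0%, and at 1000 or more LSD1 lay under 32.6% and 42.9% and GFI1 under 41.9% and 30.4%. For LSD1 the order of gained and lost thus turned among strong peaks, where lost peaks numbered only 169 and 56 and no interval was computed. At 500 or more, H3K4me3 lay under 17.6% of gained and 37.3% of lost peaks, and its part in this was not tested. The order of gained and lost also turned with another overlap rule. With a 50% reciprocal overlap as the rule for sharing, LSD1 lay under 13.3% of gained and 16.5% of lost peaks. H3K4me3 then lay under 17.4% and 20.9%, and GFI1 under 17.0% and 17.1%.

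Wide peaks meet other peaks more often, so binding was also read within width classes. Over 4 kb, LSD1 lay under 19.5% of 1703 gained and 53.8% of shared peaks, and under 20.1% of 781 lost and 53.8% of retained peaks. GFI1 in that class lay under 33.9% of gained, 50.3% of shared, 31.0% of lost and 50.7% of retained peaks. Between 2 and 4 kb, GFI1 lay under 15.3% of gained peaks and 10.3% of lost peaks, and between 1 and 2 kb under 7.20% and 4.04%. GFI1 was thus somewhat more frequent under gained than under lost peaks of 1 to 4 kb. Within 1 H3K4 class of DMSO, GFI1 was nearly as frequent under gained as under shared peaks: 15.9% and 17.0% on H3K4me1 alone, 31.4% and 31.4% on H3K4me1 with H3K4me2, and 4.95% and 5.23% off all H3K4 peaks, but 27.6% and 41.2% on H3K4me3. LSD1 lay under 7.24% of gained and 12.0% of shared peaks on H3K4me1 alone, 25.5% and 35.6% on H3K4me1 with H3K4me2, and 24.8% and 44.7% on H3K4me3. On H3K4me1 alone, LSD1 with GFI1 lay under 4.93% of gained and 5.59% of shared peaks, and under 1.94% of lost and 5.61% of retained peaks.

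**Figure D3:**
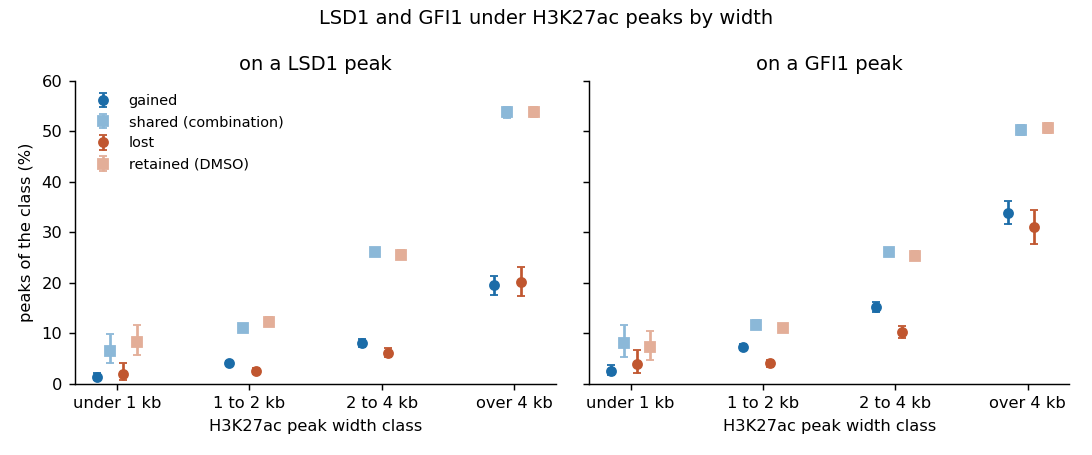
Percent of H3K27ac peaks on an LSD1 peak of DMSO (left) and on a GFI1 peak of untreated cells (right) by width class, for gained, shared, lost and retained peaks; lines are 95% exact binomial intervals. In each class from 1 kb upward, gained and lost peaks lie below shared and retained peaks, and the distance is larger for LSD1 than for GFI1 over 4 kb.

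DMSO acetylation was lost less often on bound than on unbound chromatin. Of the 5175 DMSO H3K27ac peaks on both LSD1 and GFI1, 3.63% were lost (3.14 to 4.18), against 6.07% of 3524 on LSD1 without GFI1, 13.6% of 3395 on GFI1 without LSD1 and 29.5% of 20695 on neither. The order held within width classes from 1 kb up. Over 4 kb the lost shares were 2.91%, 3.76%, 10.6% and 14.2%, and between 2 and 4 kb 3.82%, 6.81%, 13.2% and 24.4%. Peak score was not held, and its part in these shares was not tested. Of the lowest DMSO score quartile 48.6% were lost, and of the highest 0.756%. H3K4me3 also moved with the lost shares by binding. In the same order of binding, 1.64%, 2.64%, 3.94% and 5.99% of peaks on H3K4me3 of DMSO were lost, and 11.1%, 13.6%, 26.0% and 40.3% of peaks off it. On H3K4me1 alone, 52 of 341 doubly bound peaks were lost (15.2%, 11.6 to 19.5), against 36.9% of unbound ones. Counted over LSD1 sites instead of H3K27ac peaks, the loss away from H3K4me3 was 11.2% with GFI1 and 11.3% without it.

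Unacetylated H3K4me1 regions gained H3K27ac at different shares by binding class. They are called primed here whether or not they also carried H3K4me3. In DMSO, 28133 H3K4me1 peaks carried no H3K27ac, and 7204 of them, 25.6%, had an H3K27ac peak in the combination. Among the 1331 such regions bound by both LSD1 and GFI1, 53.9% were acetylated in the combination (51.2 to 56.6). The share was 47.8% in 657 regions with LSD1 but not GFI1, 34.2% in 2599 regions with GFI1 but not LSD1 and 22.4% (21.9 to 23.0) in 23546 regions with neither. Within each width class from 1 kb up, the share was higher in doubly bound than in unbound regions: 42.3% against 18.6% at 1 to 2 kb, 50.4% against 27.8% at 2 to 4 kb, and 66.7% against 34.5% over 4 kb. H3K4me3 of DMSO lay on 31.0% of doubly bound and 11.2% of unbound primed regions. Among the regions without H3K4me3, the combination acetylated 50.2% of 918 doubly bound (46.9 to 53.5), 45.5% of 409 with LSD1 only, 33.7% of 2101 with GFI1 only and 21.4% of 20919 unbound ones. These binding classes were chosen with earlier results of these data known, and the values describe them.

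The single treatments were read at the same primed regions. They share the DMSO control with the combination, so the values are given side by side. Doubly bound regions were acetylated in 27.5% with MC_2580, 32.2% with low RA, 27.7% with high RA and 53.9% with the combination. Regions with neither factor were acetylated in 3.40%, 25.8%, 21.8% and 22.4%. On unbound chromatin the combination list was thus close to the RA lists, and on doubly bound chromatin it was above all 3 single treatments. Without H3K4me3 the doubly bound regions gave 27.5%, 24.0%, 21.1% and 50.2%, and the unbound ones 3.46%, 23.3%, 21.0% and 21.4%. Regions with LSD1 but not GFI1 were acetylated in 10.5%, 53.6%, 40.3% and 47.8%, with low RA above the combination. The H3K27ac list of low RA is the longest, with 55793 peaks, and that of MC_2580 the shortest, with 24552. With all lists, DMSO included, held to the shortest length, which also changes which regions count as primed, doubly bound regions gave 32.6%, 19.5%, 20.8% and 42.4%, unbound regions 5.21%, 13.2%, 13.4% and 13.1%, and LSD1 without GFI1 16.1%, 33.6%, 29.4% and 34.7%. The combination stayed the highest list on doubly bound regions under that setting, while the order of MC_2580 and RA there, and of low RA and the combination at LSD1 without GFI1, turned.

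**Figure D4:**
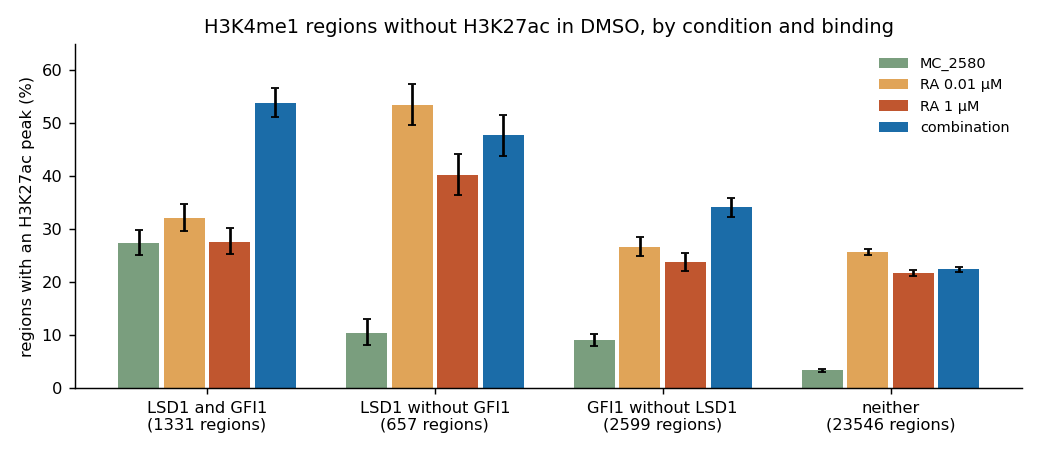
Percent of H3K4me1 regions without H3K27ac in DMSO that carry an H3K27ac peak in each treated library, by LSD1 and GFI1 binding; lines are 95% exact binomial intervals and the number of regions stands under each class. On LSD1 with GFI1 the combination reaches 53.9% and no single treatment exceeds 32.2%.

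Overlap between the single treatments and the combination was then counted region by region. Of the 1331 doubly bound primed regions, 665 were acetylated neither in MC_2580 nor in low RA, and 211 of these (31.7%, 28.2 to 35.4) were acetylated in the combination. Of 237 acetylated in MC_2580 only, 69.6% were acetylated in the combination, of 300 in low RA only 74.0%, and of 129 in both 93.0%. Among the 23546 unbound regions, 17082 were acetylated in neither single treatment, and 10.8% of these were acetylated in the combination. Unbound regions called in MC_2580 only were called again in 42.6%, and those called in low RA only in 51.9%. Of the regions acetylated in the combination, 29.4% were in neither single list when doubly bound, 69 of 314 with LSD1 only, 40.3% with GFI1 only and 34.9% when unbound, so this share was not highest on doubly bound regions.

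LSD1 sites themselves gave a similar picture for the shares by treatment, but not for the share found in neither single list. Away from H3K4me3, 1255 LSD1 sites with GFI1 had no H3K27ac in DMSO. A peak appeared at 24.4% of them in MC_2580, 20.1% in low RA, 18.4% in high RA and 44.0% in the combination (41.2 to 46.8). At the 676 corresponding sites without GFI1, the shares were 11.8%, 46.9%, 33.3% and 41.4%. Of the 552 sites with GFI1 that were acetylated in the combination, 213 (38.6%) had no peak in MC_2580 or in low RA, against 22.5% of those without GFI1. The share was 34.9% in H3K4me1 regions with neither factor and 42.9% at GFI1 sites without LSD1. Both of these classes also include places with H3K4me3, so the comparison is not like for like. The share at sites with both factors was not the highest of those computed.

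Gained peaks overlapped the RA lists more often than the MC_2580 list. Of the 15266 gained peaks, 57.0% overlapped an H3K27ac peak of low RA, 48.6% of high RA and 9.72% of MC_2580, and 26.0% overlapped none of these. Gained peaks scoring 500 or more overlapped a peak of high RA in 86.0%, of low RA in 77.0% and of MC_2580 in 26.6%, and 3.96% overlapped none. Gained peaks on both LSD1 and GFI1 overlapped a peak of MC_2580 in 39.1% (35.5 to 42.8), against 7.40% of gained peaks on neither factor. They overlapped low RA in 44.3% and high RA in 43.8%, both above MC_2580, against 58.1% and 48.5% of peaks on neither factor. Of the doubly bound gained peaks, 19.1% were in MC_2580 and in neither RA list, against 1.69% of unbound ones. In both RA lists but not MC_2580 were 20.2% and 31.2%. Widths over 4 kb were found in 268 of 713 doubly bound and 1062 of 13005 unbound gained peaks. Width was not held, and its part in these shares was not tested. With the 3 treated lists held to the length of the shortest and the gained set unchanged, the shares were 26.9% for low RA, 26.4% for high RA and 9.72% for MC_2580.

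Lost peaks were divided differently. Of the 6960 lost peaks, 49.7% still overlapped a peak of low RA, 31.9% of high RA and 26.3% of MC_2580, and 28.7% overlapped none. Among the 169 lost peaks scoring 500 or more in DMSO, 161 (95.3%, 90.9 to 97.9) had a peak in MC_2580, 58.0% in high RA and 41.4% in low RA. The share of all DMSO peaks of that score with a peak in MC_2580 was not computed. The 95.3% is therefore not shown to be particular to lost peaks. Lost peaks on both LSD1 and GFI1 were in MC_2580 in 58.5% and in low RA in 31.4%. With the 3 treated lists held to the length of the shortest and the lost set unchanged, lost peaks were in MC_2580 in 26.3%, low RA in 24.3% and high RA in 10.6%, so MC_2580 went from the lowest to the highest share.

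Gained peaks clustered along chromosomes more than lost peaks did. Another gained peak lay within 10 kb of 49.3% of gained peaks (48.5 to 50.1), and another lost peak within 10 kb of 34.9% of lost peaks (33.8 to 36.0). Gained peaks were also more numerous, and the part of their number in this was not tested. The median gap to the nearest peak of the same set was 10379 bases for gained and 24811 for lost peaks. Shared and retained peaks were denser still, with 61.1% and 60.2% within 10 kb of their own kind. Runs of at least 5 peaks with gaps of up to 10 kb numbered 199 for gained peaks, holding 1240 peaks and up to 27 in 1 run, and 28 for lost peaks, holding 165 peaks and up to 10.

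Lost peaks sat closer to acetylated chromatin of the other list than gained peaks did, and were measured against the longer list. The nearest combination peak was a median of 5658.5 bases from a lost peak, and 16.0% had one within 1 kb. The nearest DMSO peak was a median of 10530 bases from a gained peak, 10.2% had one within 1 kb, and 15.8% had none within 50 kb. With both lists held to the length of the shorter, the medians were 7098 bases for lost and 10538 for gained peaks. By autosome, the gained share ran from 32.6% to 42.2% with a median of 37.2%. The lost share ran from 11.75% on chromosome 19 to 25.2% on chromosome 21, with a median of 21.6%. In the last 5 Mb before the most distal peak of each chromosome, 8.17% of gained and 9.83% of shared peaks were found, and 10.4% of lost and 9.98% of retained peaks.

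In windows of 100 kb, placed by peak centre, 12374 held H3K27ac in either condition. Of these, 4814 held gained but no lost peaks, 1921 lost but no gained peaks, 2347 both and 3292 neither. At least 5 gained peaks fell in 649 windows and at least 5 lost peaks in 141, and at least 10 fell in 29 and 2. Windows without any DMSO peak that had one in the combination numbered 1665, of which 244 had 3 or more. Windows that had DMSO peaks and none in the combination numbered 683, of which 26 had 3 or more. Positions below are on the hg18 build as deposited, counted from 1, and gene names at these positions were not used here. Scores at a position are given list by list as deposited, and since depth is unknown they rank peaks within a list and measure no change between lists.

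The windows with the most gained peaks followed different treatments. In chr20:48400001-48500000, 17 peaks were gained, and the window held 3 H3K27ac peaks in DMSO, 4 in MC_2580, 19 in low RA, 16 in high RA and 19 in the combination. It also held 4 LSD1 peaks of DMSO and 2 GFI1 peaks. In chr20:17700001-17800000, 14 were gained, with 1, 1, 17, 12 and 15 peaks in the same order and no LSD1 or GFI1 peak. Both windows were filled in every library with RA. In chr4:40300001-40400000, 13 were gained, with 2, 9, 4, 2 and 15 peaks, 3 LSD1 and 6 GFI1 peaks. There the lists with MC_2580 held the most peaks, and RA alone was near DMSO. In chr7:27000001-27100000, 13 were gained, with 2, 3, 6, 8 and 15 peaks, no LSD1 peak and 3 GFI1 peaks. In chr4:40100001-40200000, 12 were gained, with 0, 0, 1, 1 and 12 peaks, 1 LSD1 and 4 GFI1 peaks. H3K27ac peaks in this window were thus called almost solely in the combination library. It was 1 of 6 windows with 12 gained peaks and came first by position. The windows named here were picked for combination peaks missing from DMSO, so a high combination count is part of the choice.

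In 4 of the 5 windows with the most lost peaks, every treated library held fewer peaks than DMSO. These windows were picked for DMSO peaks missing from the combination, so a high DMSO count is part of the choice. Lower counts in the other libraries are thus no separate support for a loss. In chr22:48300001-48400000, 11 peaks were lost, with 11 in DMSO, 9 in MC_2580, 16 in low RA, 2 in high RA and 3 in the combination, and 1 LSD1 and 2 GFI1 peaks. This window, the exception, held fewer peaks than DMSO with high RA and the combination, but more with low RA. In chr22:18300001-18400000, 10 were lost, with 14, 7, 11, 10 and 7 peaks, 2 LSD1 and 3 GFI1 peaks. In chr1:10600001-10700000, 9 were lost, with 16, 5, 10, 14 and 8 peaks and no LSD1 or GFI1 peak. In chr12:48500001-48600000, 9 were lost, with 13, 7, 11, 7 and 4 peaks, 4 LSD1 and 6 GFI1 peaks. In chr16:52800001-52900000, 9 were lost, with 11, 3, 5, 3 and 3 peaks, 2 LSD1 and 4 GFI1 peaks. Windows with 9 lost peaks numbered 5, and those named here come first by position.

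**Figure D5:**
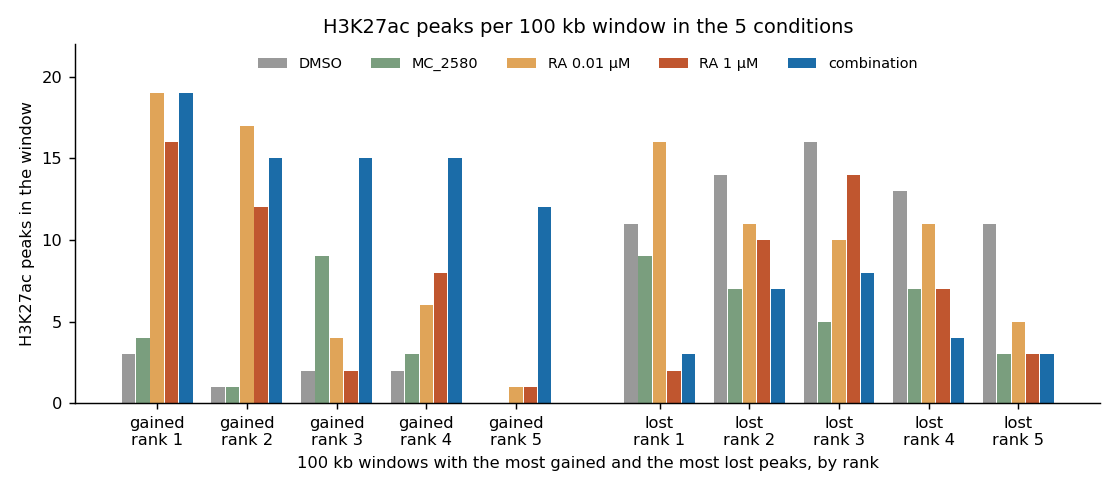
H3K27ac peaks, by peak centre, in the 5 windows of 100 kb with the most gained peaks (left) and the 5 with the most lost peaks (right), ranked as in the text, in each of the 5 conditions with 1 library each. The combination bar is at 12 to 19 peaks in the windows on the left and at 3 to 8 in those on the right.

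Of the windows that changed from empty to filled or the reverse, 4 are given here, chosen after their values were seen. chr6:2500001-2600000 held no H3K27ac peak in DMSO or MC_2580, 10 in low RA, 11 in high RA and 11 in the combination. It held no LSD1 or GFI1 peak. chr16:55900001-56000000 held 0, 1, 7, 6 and 11, with 3 LSD1 and 2 GFI1 peaks. chr5:131400001-131500000 held 6 peaks in DMSO, 1 in MC_2580, 8 in low RA, 3 in high RA and 0 in the combination, while its H3K4me1 peaks numbered 6 in DMSO and 6 in the combination. It held 1 LSD1 and 1 GFI1 peak. chr6:14600001-14700000 held 6, 0, 2, 0 and 0 H3K27ac peaks and no H3K4 methylation peak in any condition. It held no LSD1 peak and 1 GFI1 peak.

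The widest of the highest-scoring gained peaks were shared mostly with RA. Scores of 3100 or more were ranked by width, so the width of the peaks named here follows from that rule. All gained peaks at that score had a median width of 7722 bases. Of the 79 gained peaks at a score of 3100 or more, the widest was chr10:125742661-125801464, 58804 bases long. It had no H3K27ac peak in DMSO or MC_2580 and a score of 3100 in both RA lists and the combination. It lay on LSD1 with a score of 948 and on GFI1 with 392, and its H3K4me3 was not called in DMSO and scored 1358 in the combination. The next by width, chr6:31622712-31675666, lay on H3K4me3 with a score of 3100 in DMSO, and its H3K27ac scored 235 in MC_2580 and 3100 in both RA lists and the combination. chr16:84111356-84138915 scored 1060 in MC_2580 and 3100 in the lists with RA, on LSD1 without GFI1. chr19:52844810-52864419 had no H3K27ac peak in DMSO, MC_2580 or low RA, scored 509 in high RA and 3100 in the combination, and lay on LSD1 and GFI1.

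Gained peaks on chromatin without any H3K4 peak in DMSO overlapped a peak of low RA in 57.4%, of high RA in 37.0% and of MC_2580 in 6.06%. Of 6 such peaks at a score of 3100 or more, only the widest were read list by list. They were chr16:65022927-65037085, chr12:123219505-123229062 and chr9:133642375-133648619. All of these had H3K27ac in both RA lists and the combination and none in DMSO or MC_2580, and none lay on an LSD1 or GFI1 peak. Their H3K4me1 scored 3100, 2024 and 1731 in the combination. H3K4me1 was likewise called in both RA lists at these places, and in MC_2580 at the place on chromosome 9 with a score of 66.0.

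The strongest lost peaks lay on H3K4me1 that was still called in the combination. chr17:30232278-30244514 was 12237 bases long, and its H3K27ac scored 3100 in DMSO, 696 in MC_2580, 150 in low RA and 68.5 in high RA, with no peak in the combination. It lay on LSD1 and GFI1, had no H3K4me3 peak in any condition, and its H3K4me1 scored 3100 in DMSO and in the combination. chr20:6413699-6422716 scored 3100 in DMSO and 858 in MC_2580, with no peak in the 3 lists with RA, and lay on LSD1 and GFI1. chr2:213527757-213536439 scored 3210 in DMSO, 3100 in MC_2580 and 430 in high RA, and had no peak in low RA or the combination. chr13:35884173-35891937 scored 2566 in DMSO, 2314 in MC_2580 and 225 in high RA, and chr10:7162056-7170068 scored 2511, 335 and 203. In DMSO the places on chromosomes 20, 13 and 10 also carried H3K4me3, with scores of 210, 368 and 132. Each of these 5 places had an H3K27ac peak in MC_2580, and 4 of them had none in low RA.

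Very wide peaks need a reservation. Peaks of 10 kb or more numbered 1921 in the combination and 1776 in DMSO, and 135 of the former were gained and 30 of the latter lost. Of the 135, 38 (28.1%) lay on H3K4me3 of DMSO, 120 were also called in low RA, 121 in high RA and 43 in MC_2580, and 6 scored under 100. Of the 30, 17 (56.7%) lay on H3K4me3 of DMSO, 16 were also called in low RA, 11 in high RA and 19 in MC_2580. The widest gained peak, chr19:53776994-53864240, was 87247 bases long on H3K4me3 at the top of the scale in DMSO, and its H3K27ac was called in the combination (1322) and high RA (3100) only. chr19:10220853-10284917, 64065 bases long, scored 140 in the combination and 3100 in high RA, and was not called in the other lists. Among lost peaks, chr19:51907183-51931024 was 23842 bases long on H3K4me3 scoring 3100 in DMSO. Its H3K27ac scored 964 in DMSO, 94.5 in low RA and 2126 in high RA, with no peak in MC_2580 or the combination. Of 6632 DMSO H3K4me3 peaks at a score of 3100 or more, 93 had no H3K27ac peak in DMSO, 253 in MC_2580, 68 in low RA, 42 in high RA and 29 in the combination. On chromosome 19 the DMSO figure was 18 of 395 (4.56%). Whether wide acetylated promoter regions were missed in the calling of some lists was not tested. Joined within 12.5 kb, peaks formed 1018 domains of 50 kb or more in the combination and 731 in DMSO.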

How the data were processed

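ChIP-seq peak lists were analysed from 23 of 25 samples, and the 2 input samples entered no comparison. The submitters' processing notes name the hg18 build, MACS 1.4.1, Bowtie 1.0.1, CASAVA 1.8, bcl2fastq 2 and FastQC (0.10.0 and 0.11.5), and each list belongs to 1 library. The deposited score of each peak is the authors' value, 10 times the negative log10 of the caller's p-value. LSD1 lists start at scores of 234 (DMSO) and 357 (MC_2580), and the sources used here name no filter for this. A start below 0 in 2 combination peaks was set to 0.

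Overlaps of at least 1 base were computed in Python 3.11.15 (SciPy 1.17.1, NumPy 2.4.6), with Matplotlib 3.10.9 for figures, and this code was tested on simulated peaks. Ranking treated scores of 3100 or more as tied, then took the widest peak. Named regions were the 6 highest-scoring gained and lost peaks, the 3 widest, the 3 highest-scoring on LSD1 with GFI1, the 3 highest-scoring gained peaks off all H3K4 peaks, and the 5 windows of 100 kb with the most gained and lost peaks; not all are printed. Members and lists were chosen with earlier results of these data known. Alternatives were a minimum score of 100, a one-sided minimum, 50% reciprocal overlap, joining within 1 kb, equal lengths, peaks cut to 1000 bases around the centre, autosomes, a distance of 25 kb and the LSD1 list of MC_2580. Gene names, sequences and a check of cell type markers need hg18 gene positions and were not used here. Regions prone to false signal were not filtered.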

Additional observations from a re-analysis of the deposited data

How the results depend on the processing

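No paired analysis was possible because each group had 1 library. Of 83 recomputed values 20 stayed within their interval or within 1.5 times and 63 moved; the cause was not tested unless named. The log2 ratio kept its sign. In 19 comparisons of a gained with a lost share of H3K4me1, H3K4me3, LSD1, GFI1 or neighbours, the order held in 16 and turned in 3, those of H3K4me3, LSD1 and GFI1 under 50% reciprocal overlap. Values follow as gained and lost. A minimum score of 100 in both lists gave 9107 and 3991 peaks, a log2 ratio of 1.19, median widths of 2695 and 2909 bases, neighbours within 10 kb at 40.3% and 27.7%, H3K4me1 under 67.5% and 73.8%, H3K4me3 under 17.4% and 16.3%, LSD1 under 13.1% and 11.2%, and GFI1 under 19.3% and 14.6%. A one-sided minimum of 100 gave 6507 and 2417 peaks and 1.43. The 50% reciprocal overlap gave 13581 lost peaks, a ratio of 0.69, widths of 2085 and 2264, H3K4me1 59.4% and 68.6%, H3K4me3 17.4% and 20.9%, LSD1 13.3% and 16.5%, and GFI1 17.0% and 17.1%; it adds shifted and resized shared peaks. Equal lengths gave 9299 gained peaks and 0.094. Peaks cut to 1000 bases around the centre gave 13515 lost peaks, 0.70, H3K4me1 45.0% and 52.9%, H3K4me3 8.73% and 7.26%, LSD1 5.82% and 4.67%, and GFI1 9.34% and 6.49%. Joining within 1 kb gave widths of 1902.5 and 1980 and neighbours at 34.8% and 21.4%, a distance of 25 kb gave 66.8% and 50.0%, and the LSD1 list of MC_2580 gave 10.4% and 9.70%. Added after seeing the data, primed H3K4me1 regions with LSD1 and GFI1 and with neither were acetylated in 49.1% and 17.3% at a minimum of 100, 43.7% and 13.8% one-sided, 42.4% and 13.1% at equal lengths, and 51.1% and 21.0% when so cut. Also added, treated lists held to the shortest length gave overlaps of gained and lost peaks with low RA of 26.9% and 24.3% and with high RA of 26.4% and 10.6%, and equal lengths gave a median distance of 7098 bases from lost peaks to the combination list. Another addition was leaving out peaks of 10 kb or more, which moved none of 6 values by more than their interval or 1.5 times. Depth is unknown, so a missing weak peak is not evidence of missing acetylation.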

Other observations

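The strength of LSD1 binding was set beside acetylation at the 1931 LSD1 sites of DMSO that had neither H3K4me3 nor H3K27ac in DMSO. These sites were split into quartiles by LSD1 score, and the share with a GFI1 peak was 45.5%, 55.3%, 68.5% and 90.7% from the lowest to the highest quartile. In MC_2580 an H3K27ac peak was called at 12.6%, 16.1%, 21.1% and 30.1% of them. In low RA the shares were 32.9%, 31.3%, 30.2% and 23.4%, and in high RA 27.1%, 22.6%, 25.3% and 19.5%. In the combination they were 39.8%, 39.1%, 43.7% and 49.8%. The shares thus went up with LSD1 score in MC_2580, were lowest at the strongest sites in low and high RA, and were highest at the strongest sites in the combination. The share with GFI1 went up over the same quartiles. Split by GFI1 instead, these sites gave 24.4% with it and 11.8% without it in MC_2580, and 20.1% and 46.9% in low RA. LSD1 score and GFI1 were not told apart here. Median site width went up from 1249 to 1664 bases over the quartiles. The part of GFI1 and of width in these shares was not tested.

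H3K4 methylation at H3K4me1 regions without H3K27ac in DMSO differed with acetylation in the combination. The 718 such regions with LSD1 and GFI1 that were acetylated in the combination carried H3K4me2 in 61.8% in DMSO and 82.2% in the combination, and H3K4me3 in 35.8% and 64.1%. The 613 that stayed without H3K27ac carried H3K4me2 in 47.8% and 61.7% and H3K4me3 in 25.4% and 39.5%. The 5284 unbound regions that were acetylated carried H3K4me2 in 26.1% and 38.7% and H3K4me3 in 15.4% and 24.0%. Unbound regions that stayed without H3K27ac carried H3K4me2 in 16.1% and 17.0% and H3K4me3 in 9.93% and 12.4%. Higher shares in the combination were thus also found at unbound acetylated regions. The acetylated regions were the wider ones, with medians of 3349 against 2800 bases for doubly bound and 2064 against 1770 for unbound regions. The H3K4me3 combination library has the unclear RA dose and the longer list named above.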
